A study of Mus musculus with 6 samples.

Results

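Rag1, Rag2, Ptcra and Dntt are genes that developing T cells use to build an antigen receptor and then switch off, and their chromatin was read here in mature T cells of the thymus. The 4 genes lie in 3 windows of mouse build mm9 that were set by position, chr2:101455001-101505000 for Rag1 and Rag2, chr17:46885001-46910000 for Ptcra and chr19:41095001-41140000 for Dntt. The genes and windows were chosen with earlier results of these data known. Together the windows cover 120 kb, which is 240 of the 5283800 bins of 500 bp on chromosomes 1 to 19, X and Y. The study mapped 2 histone marks in mature T cells, either CD4+ or CD8+, from C57BL/6 mice, and the labels give no further genotype or treatment. Nuclei were digested with micrococcal nuclease to single nucleosomes, which were precipitated with rabbit polyclonal antibodies to H3K4me3 or H3K36me3, and unprecipitated input DNA of both cell types was sequenced beside them. Every one of the 6 groups is a single library. Values therefore have no replicates, no p-value is given, and each comparison is between libraries rather than between cell types. The labels do not give the age or number of the mice, the gate used to isolate the cells or their purity. No immature thymocytes were analysed here, so a mark that is present is described as present in mature cells and not as retained or lost.

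H3K4me3 marks nucleosomes at the starts of active genes, and H3K36me3 is laid down along the body of a gene while it is being transcribed. RAG1 and RAG2 together form the recombinase that cuts DNA at the signal sequences beside V, D and J segments, and the 2 genes sit next to each other and are transcribed towards each other. Dntt encodes terminal deoxynucleotidyl transferase, which adds untemplated nucleotides to the cut ends before they are joined. Ptcra encodes the pre-T-cell-receptor alpha chain, which pairs with a new beta chain at the surface of early thymocytes and signals that the rearrangement gave a usable protein. Mature CD4+ and CD8+ cells have completed these steps, and all 4 genes are classically described as expressed at earlier stages of thymic development.

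The 250 bases before each gene's start show what kind of promoter each mark could sit on. They are taken from RefSeq in build GRCm38.p6, where all 4 genes matched, and not from mm9, in which the reads are placed. They lie on chr2:101649533-101649782 on the minus strand for Rag1, chr2:101624462-101624711 on the plus strand for Rag2, chr17:46763713-46763962 on the minus strand for Ptcra and chr19:41029025-41029274 on the plus strand for Dntt. Capitals mark every match, on either strand, to the E-box CANNTG, the Ikaros core TGGGAA, the GATA site AGATAA, the Runx site TGTGGT or the TATA box TATAAA.
Rag1: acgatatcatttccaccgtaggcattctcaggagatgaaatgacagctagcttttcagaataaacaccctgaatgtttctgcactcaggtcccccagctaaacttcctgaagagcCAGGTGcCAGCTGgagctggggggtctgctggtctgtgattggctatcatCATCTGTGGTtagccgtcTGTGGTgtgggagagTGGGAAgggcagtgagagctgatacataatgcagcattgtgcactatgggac
Rag2: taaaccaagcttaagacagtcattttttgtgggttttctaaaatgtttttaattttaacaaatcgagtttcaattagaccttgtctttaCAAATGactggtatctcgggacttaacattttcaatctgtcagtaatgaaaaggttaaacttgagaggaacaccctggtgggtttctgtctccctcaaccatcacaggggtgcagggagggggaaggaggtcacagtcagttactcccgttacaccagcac
Ptcra: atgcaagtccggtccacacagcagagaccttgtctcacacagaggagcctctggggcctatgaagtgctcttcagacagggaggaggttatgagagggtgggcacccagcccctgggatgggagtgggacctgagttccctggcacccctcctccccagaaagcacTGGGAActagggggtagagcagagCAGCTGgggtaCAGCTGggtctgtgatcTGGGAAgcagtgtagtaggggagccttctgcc
Dntt: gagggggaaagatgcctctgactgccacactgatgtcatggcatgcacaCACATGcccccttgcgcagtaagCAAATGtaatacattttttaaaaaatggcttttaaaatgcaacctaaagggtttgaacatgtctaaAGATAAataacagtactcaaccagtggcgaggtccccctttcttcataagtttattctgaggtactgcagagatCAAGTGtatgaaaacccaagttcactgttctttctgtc

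All 4 promoters lay below the median of all promoters in CpG content. CpG-island promoters, which are rich in CpG, carry H3K4me3 in most cell types. The ratio of observed to expected CpG dinucleotides was 0.190 at Rag1, 0.283 at Rag2, 0.0451 at Ptcra and 0.185 at Dntt, against a median of 0.373 over the 32851 promoters of the table. Ptcra stood lowest of the 4, with 1 CpG in 250 bases and a rank at percentile 7.88 of all promoters, and Dntt, Rag1 and Rag2 ranked at 27.5, 28.3 and 40.9. Rag1 held 3 E-boxes, 1 Ikaros core and 2 Runx sites, the first of which overlaps an E-box. Rag2 held 1 E-box, Ptcra 2 E-boxes and 2 Ikaros cores, and Dntt 3 E-boxes and 1 GATA site. E-boxes are bound by the E proteins that act in early lymphocytes, but 66.2% of all promoters of this length held one, so their presence separates nothing. The Ikaros core stood in 21.6% of all promoters, the Runx site in 14.0%, the GATA site in 9.99% and the TATA box, found in none of the 4, in 12.4%.

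The libraries held between 6844546 reads (CD4 H3K36me3) and 12136610 reads (CD8 H3K4me3), and a read was counted in the bin that held its midpoint. Levels are given as reads and as fold over input, which is the ratio of RPM (reads scaled to library size) in the precipitate to RPM in that cell type's own input, counted as no fewer than 3 reads. A 500 bp bin was called enriched for H3K4me3 at 10 or more reads and 4 or more times the input, and a 5 kb part for H3K36me3 at 10 or more reads and 2 or more times the input. Intervals are exact 95% intervals that cover counting error only, since amplified reads are not independent molecules. Distinct read positions made up 54.4% of the CD4 and 31.4% of the CD8 H3K4me3 reads, and 91.2% or more of the other 4 libraries. Far from any enrichment, H3K4me3 reads stood at 20.1% of input in CD4 cells and 1.52% in CD8 cells, so a few CD4 reads in a bin weigh less than a few CD8 reads. For H3K36me3 these background levels were 35.8% and 35.9%.

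In the 3 windows together, H3K4me3 was enriched in 16 bins in CD4 cells (6.67% of 240, against 0.985% of all bins of the genome) and in 11 bins in CD8 cells (4.58%, against 0.843%). All 11 CD8 bins were also enriched in CD4 cells, and the 16 bins formed 6 runs. H3K36me3 was enriched in 4 of 24 parts in CD4 cells (16.7%, against 9.98% of all parts) and in 5 in CD8 cells (20.8%, against 9.96%). In 500 bp bins, with at least 5 reads and 2 times the input, H3K36me3 was enriched in 26 bins in CD4 cells (10.8%, against 6.08%) and 24 in CD8 cells (10%, against 5.97%). These counts mix the members with neighbouring genes in the same windows, and the 3 loci differed. Dntt carried both marks in both cell types. The Rag1/Rag2 window held modest H3K36me3 and, outside 1 strong narrow H3K4me3 run, only weak H3K4me3, and the stretch where Ptcra lies had no enriched bin or part of either mark. Over the whole Rag1/Rag2 and Dntt windows H3K36me3 differed little in CD4 cells, at 1.30 (1.08 to 1.57) and 1.43 (1.18 to 1.72) times the input. In CD8 cells it was 1.13 (0.931 to 1.37) and 1.74 (1.44 to 2.11) times.

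At Dntt, H3K4me3 covered 3.0 kb in 1 run at chr19:41103501-41106500, with 504 CD4 reads and 336 CD8 reads. The fold over input of the run was 39.8 (22.6 to 77.6) in CD4 cells and 19.8 (11.6 to 36.5) in CD8 cells. Of the 19203 runs of the genome, 7.89% were at least as wide. The fullest bin, chr19:41105501-41106000, held 161 CD4 reads and 182 CD8 reads, which ranks it at percentile 67.7 and 56.7 of the enriched bins of each library, so its height was common among enriched bins. The files carry no annotation and no mm9 gene table was used here. The run is therefore assigned to Dntt by the window and by its place before the H3K36me3 described next, from which a gap separates it. RefSeq gives Dntt a length of 30.25 kb on the plus strand, and a gene of that length starting in the run would end close to the boundary of the last 5 kb of the window.

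**Figure D1:**
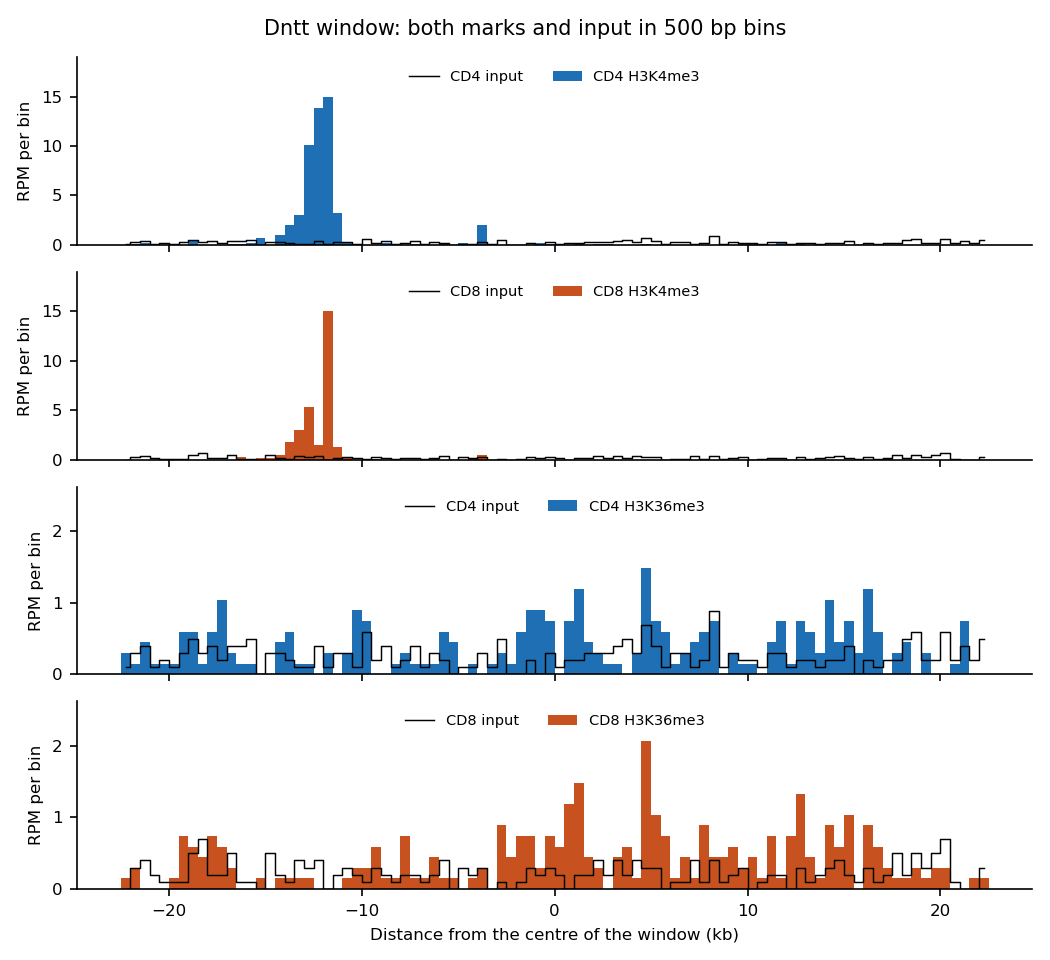
Reads scaled to library size (RPM) per 500 bp bin across the Dntt window, for H3K4me3 (upper pair of panels) and H3K36me3 (lower pair) in CD4 cells (blue) and CD8 cells (red), against distance from the window's centre in kb, with the matching input as a black line. Each panel is 1 library. H3K4me3 forms 1 main run left of the centre in both cell types, with 161 CD4 and 182 CD8 reads in its fullest bin, and H3K36me3 lies mostly right of the centre.

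H3K36me3 enrichment lay on the plus-strand side of the run but did not adjoin it. In the 7.0 kb after the run, chr19:41106501-41113500, H3K36me3 was 1.32 (0.756 to 2.28) times the input in CD4 cells. In CD8 cells it was 1.27 (0.702 to 2.26) times. The 8.5 kb before the run stood at 1.13 (0.715 to 1.78) and 1.02 (0.612 to 1.68) times, so these intervals overlapped. The first enriched part began at 41115001. The 5 kb part at chr19:41115001-41120000 held 40 CD4 reads and 47 CD8 reads, 3.78 (2.07 to 7.23) and 3.65 (2.10 to 6.59) times the input. The part at chr19:41130001-41135000 held 40 and 42 reads, 3.36 (1.88 to 6.22) and 2.82 (1.64 to 4.96) times the input. Both parts were enriched in both cell types, at percentiles 91.7 to 93.8 of all parts of the genome. The 2 parts between them were enriched in CD8 cells only, with 29 CD4 and 39 CD8 reads at chr19:41120001-41125000 and 22 and 33 reads at chr19:41125001-41130000. Their CD4 to CD8 ratios were 0.763 (0.455 to 1.27) and 0.684 (0.380 to 1.21), so the difference between enriched and not enriched lay within counting error. The CD4 input also held more reads in both parts, 34 against 24 and 27 against 16.

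H3K36me3 stopped about where a gene of that length would end. In the last part, chr19:41135001-41140000, it fell to 13 CD4 and 11 CD8 reads, 0.546 and 0.524 times the input. Before the run, at chr19:41095001-41100000, it stood at 22 and 21 reads, 1.23 and 1.19 times the input. From the end of the second H3K4me3 run to the end of the window, 26.0 kb, H3K36me3 was 1.62 (1.28 to 2.06) times the input in CD4 cells and 2.33 (1.83 to 2.97) times in CD8 cells. H3K4me3 over the same stretch counted 16 CD4 and 3 CD8 reads, against 29.1 and 2.08 expected from the background. The 26.0 kb include the last part, where H3K36me3 was 1.52 (0.811 to 2.60) and 1.46 (0.728 to 2.61) times the background. In each 5 kb part from 41115001 to 41135000, H3K36me3 was above background in both libraries and H3K4me3 was not. Between the 2 runs, at chr19:41106501-41113500, H3K4me3 counted 12 CD4 reads (6.58 expected) and 6 CD8 reads (0.517 expected), of which the CD8 count was above background.

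The second run was a single bin, chr19:41113501-41114000, which held 21 CD4 and 6 CD8 H3K4me3 reads and was enriched in CD4 cells only. It lay 8.0 kb after the fullest bin of the run. With 3 input reads in each cell type it was 6.64 (1.98 to 34.7) times the input in CD4 cells and 1.65 (0.352 to 10.2) times in CD8 cells, against 0.637 and 0.0553 reads expected from the background. Both counts were above background, and the bin ranked at percentile 13.5 of the CD4 enriched bins, among the weakest.

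At Dntt the CD4 and CD8 libraries were compared mark by mark. For this comparison the CD4 to CD8 read ratio was centred on its median over the bins (H3K4me3) or parts (H3K36me3) enriched in both cell types, and a difference was called at 2-fold or more with an exact interval that excluded 1 at a stricter level than 95%. The H3K4me3 ratio of the run was 2.18 (1.89 to 2.51), called higher in CD4 cells. The size of this ratio moved with the processing while its direction held: it was 1.59 with 1 read per position, 1.69 with scaling to total reads and 1.79 with a centre taken at matched read depth, so the call of 2-fold was lost in each. Over the whole window the H3K36me3 ratio was 0.948 (0.785 to 1.14), from 218 CD4 and 236 CD8 reads, and it was not called.

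The H3K4me3 difference was uneven along the Dntt run. In the fullest bin the ratio was 1.28 (1.03 to 1.59), which was not called. In the bin before it, chr19:41105001-41105500, 148 CD4 reads stood against 18 CD8 reads, a ratio of 11.9 (7.30 to 20.7), and of 5.93 with 1 read per position. Of these reads, 88 CD4 and 15 CD8 lay in the last 100 bp, at the edge of the main peak. The ratio of this bin thus depends in part on where its edge cuts that peak. The neighbouring bins starting at 41104501 (108 and 64 reads, ratio 2.45) and 41106001 (34 and 15 reads, ratio 3.29) and the separate bin at 41113501 (ratio 5.08) were also called higher in CD4 cells. The first of these fell below 2-fold with 1 read per position, at 1.65, and with scaling to total reads, at 1.91. With 1 read per position only 1 bin of the 3 windows was still called. The bins starting at 41103501, with 21 reads in each cell type, and at 41104001, with 32 and 36, were not called.

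**Figure D2:**
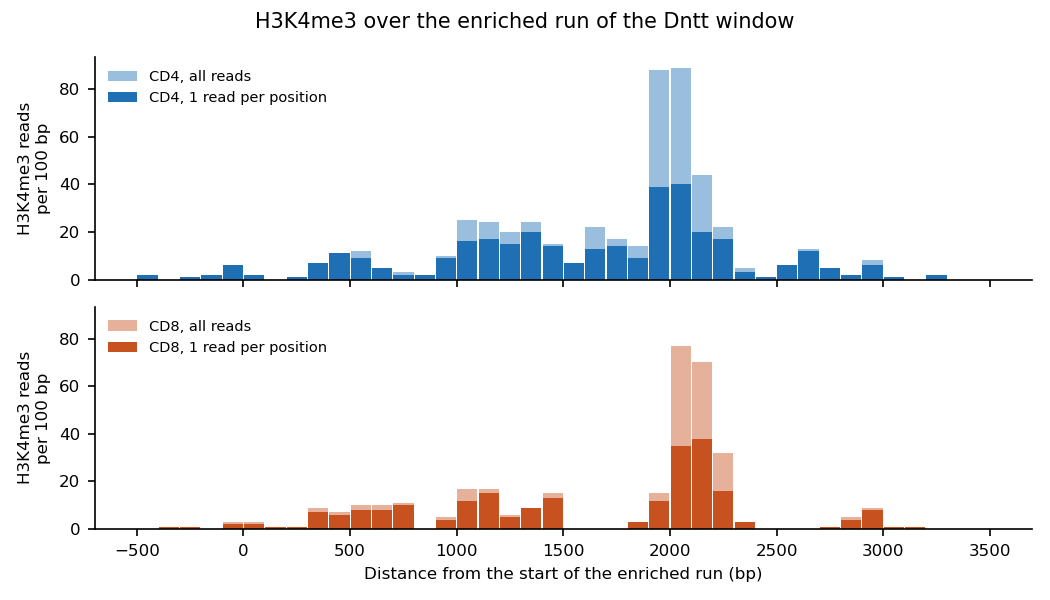
H3K4me3 reads per 100 bp over the Dntt run in CD4 cells (upper panel, blue) and CD8 cells (lower panel, red), against distance from the start of the run in bp. Pale bars count all reads and dark bars 1 read per position. Both cell types share a main peak, and in 1 gap before it the CD8 profile drops to 3 reads over 400 bp where CD4 has 60.

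At 100 bp the CD8 profile broke into blocks with 4 gaps of at most 3 reads per 100 bp, and CD4 reads were clearly more numerous in 2 of them. In the 400 bp at chr19:41105001-41105400 there were 60 CD4 reads at 43 positions and 3 CD8 reads, with 2 input reads in each cell type. In the 500 bp at chr19:41105801-41106300 there were 30 CD4 and 4 CD8 reads. The other 2 gaps were low in both cell types, with 3 CD4 and 5 CD8 reads at chr19:41103501-41103800 and 2 and 0 at chr19:41104301-41104400. The main blocks held 243 CD4 and 194 CD8 reads at chr19:41105401-41105800, 118 and 69 at chr19:41104401-41105000 and 38 and 47 at chr19:41103801-41104300, so the balance also varied between blocks. These stretches were chosen after their values were seen and are given as a description. The gaps were picked by their low CD8 count, which by itself favours an excess of CD4 reads in them. No matching search was made for stretches low in CD4. CD8 reads were more numerous at chr19:41104201-41104300, with 11 against 3, and at chr19:41105601-41105700, with 70 against 44. The background expected over the whole 3.0 kb run was 2.55 CD4 reads and 0.258 CD8 reads.

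In the Rag1/Rag2 window the strongest H3K4me3 was a 1.0 kb run at chr2:101468501-101469500. It held 343 CD4 reads and 377 CD8 reads, 81.3 (31.5 to 300.1) and 103.5 (35.1 to 504.1) times the input, and 74.3% of the runs of the genome were at least as wide. Its fullest bin ranked at percentile 71.7 of the CD4 and 64.7 of the CD8 enriched bins. The CD4 to CD8 ratio was 1.32 (1.14 to 1.53), an interval that excludes 1, but it was below 2-fold and was not called. It was 1.31 with 1 read per position, 1.43 with a centre at matched read depth and 1.03 with scaling to total reads. The first bin had a ratio of 1.08 (0.887 to 1.31) and the second 1.81 (1.42 to 2.31). The run thus differed by less than 2-fold between the libraries in each of these settings.

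Which gene start this run marks could not be settled from the files. In RefSeq the outer start of Iftap, a gene on the minus strand whose body runs away from Rag1, lies inside Rag2, 4.32 kb after the Rag2 start and 20.5 kb before the Rag1 start, and a second Iftap start lies 3.67 kb before the Rag2 start. If the run is the outer Iftap start, the Rag1 start falls in the tile at chr2:101487501-101490000 and the Rag2 start near chr2:101462501-101467500. If the run is the Rag2 start instead, the Rag1 start lies 24.82 kb away, near a second, weak run 24.0 kb from the first, and the strong mark is at Rag2. If it is the second Iftap start, the Rag1 start lies 28.49 kb away, where chr2:101495001-101497500 and chr2:101497501-101500000 held 3 and 5 CD4 reads and 0 CD8 reads. None of these orders was checked against an mm9 annotation. In all 3 the Rag1 start carried at most weak H3K4me3.

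**Figure D3:**
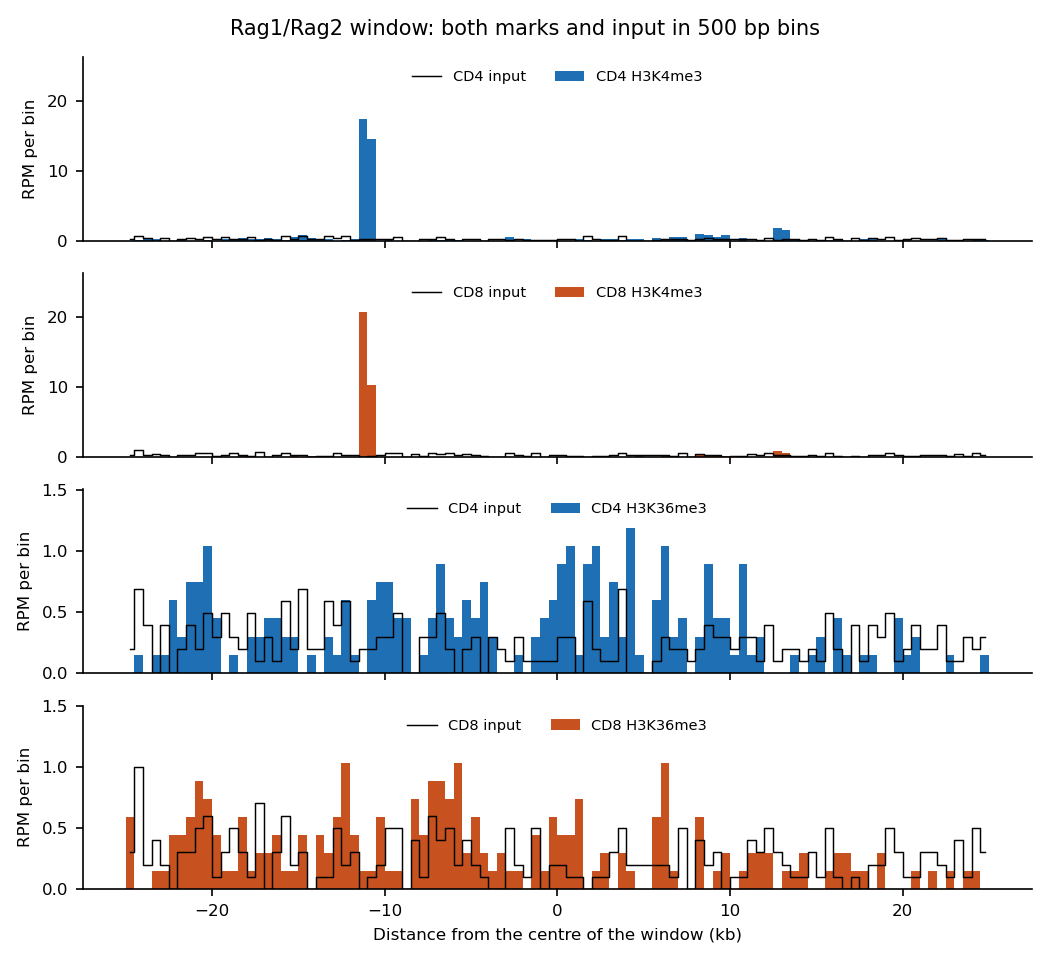
Reads scaled to library size (RPM) per 500 bp bin across the Rag1/Rag2 window, with the same layout as the plot of the Dntt window. The H3K4me3 panels show 1 narrow run of 343 CD4 and 377 CD8 reads and a weak one of 37 and 17 reads to its right, and the H3K36me3 panels show low, scattered signal that is densest near the centre in CD4 cells.

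The weak H3K4me3 of this window lay in 2 places. The second run, chr2:101492501-101493500, held 37 CD4 and 17 CD8 reads, 11.7 (3.70 to 59.3) and 2.80 (0.992 to 9.71) times the input, and it was enriched in CD4 cells only. Its fullest bin stood at percentile 12.2 of the CD4 enriched bins. With pooled inputs that bin, with 10 CD8 reads, also passed in CD8 cells, where 1500 bp of the window were then enriched against 1000. The ratio of 3.16 (1.74 to 5.99) was called higher in CD4 cells for the run as a whole, although neither of its bins was called alone. The ratio of the run was 2.56 with 1 read per position, 2.46 with scaling to total reads and 2.35 with a centre at matched read depth. Whether the call held in these settings was not tested. The background expected there was 0.637 CD4 reads and 0.0922 CD8 reads, so both libraries were above it.

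The other place was a broad, faint stretch with no enriched bin. In tiles of 2.5 kb without an enriched bin, a threshold chosen after the data were seen, reads were called above background when the lower 95% bound exceeded the expected count in both cell types. This held for 6 of 18 such tiles of the Rag1/Rag2 window, 1 of 15 of the Dntt window and 0 of 8 of the Ptcra window, against 1.16% of such tiles in the genome. The strongest, chr2:101487501-101490000, held 32 CD4 and 12 CD8 reads where 2.76 and 0.166 were expected, with no bin above 10 CD4 or 5 CD8 reads. Next to it chr2:101485001-101487500 held 16 and 2 reads, and chr2:101482501-101485000 held 9 and 2. On the other side of the strong run, chr2:101462501-101465000 and chr2:101465001-101467500 each held 15 CD4 and 3 CD8 reads, and chr2:101460001-101462500 held 12 and 2. The tile at chr2:101487501-101490000 is where the first order puts the start of Rag1, and the pair with 15 CD4 reads is where it puts the start of Rag2. The tiles starting at 101460001, 101482501 and 101485001 passed only narrowly in CD8 cells. Each held 2 CD8 reads, with a lower bound of 0.242. The expected count was 0.240 in the tiles starting at 101460001 and 101482501 and 0.221 in the one starting at 101485001. The tiles were not recomputed with 1 read per position, so 2 reads could be copies of 1 molecule.

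H3K36me3 over Rag1 and Rag2 was modest against the 2-fold threshold and uneven, but it stood above background. Over the whole window it was 3.63 (3.16 to 4.15) times the background in CD4 cells and 3.15 (2.72 to 3.63) times in CD8 cells. That ranked it at percentiles 80.7 and 79.3 of genome stretches of the same length, whose medians were 0.370 and 0.391 times the input. Between the 2 H3K4me3 runs, 23.0 kb, CD4 cells had 140 reads, 2.14 (1.64 to 2.79) times the input, and CD8 cells 102 reads, 1.38 (1.04 to 1.83) times. Beyond the second run, at chr2:101493501-101505000, it fell to 0.495 and 0.512 times the input, close to the background level. Before the first run, at chr2:101455001-101468500, where the first order puts the body of Iftap and the start of Rag2, it was 0.90 and 1.20 times the input. These values were still 2.51 (1.88 to 3.28) and 3.33 (2.58 to 4.22) times the background. The stretch between the runs, which holds most of Rag1 in the first 2 orders, thus had more H3K36me3 than the right flank in both libraries. It exceeded the left flank clearly only in CD4 cells, where that flank had an interval of 0.628 to 1.28. In CD8 cells the left flank's interval, 0.855 to 1.67, overlapped that of the stretch.

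By 5 kb parts, CD4 cells were enriched at chr2:101480001-101485000, with 45 reads and 2.96 (1.75 to 5.12) times the input, and at chr2:101485001-101490000, with 30 reads and 2.16 (1.20 to 3.97) times the input. CD8 cells held 17 and 19 reads in these parts, 1.39 and 1.34 times the input. The first was called higher in CD4 cells at 2.72 (1.52 to 5.06), and the second, at 1.62 (0.883 to 3.05), was not. CD8 cells were enriched in another part, chr2:101465001-101470000, with 28 reads against 18 in CD4 cells, where the CD8 input was also lower (18 against 35 reads). That part was not enriched when the inputs were pooled, and no part of the window passed at 3-fold over input. Over the whole window the ratio was 1.16 (0.951 to 1.42), which includes 1, and between the 2 runs it was 1.41 (1.08 to 1.84), which excludes 1 but was not called.

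**Figure D4:**
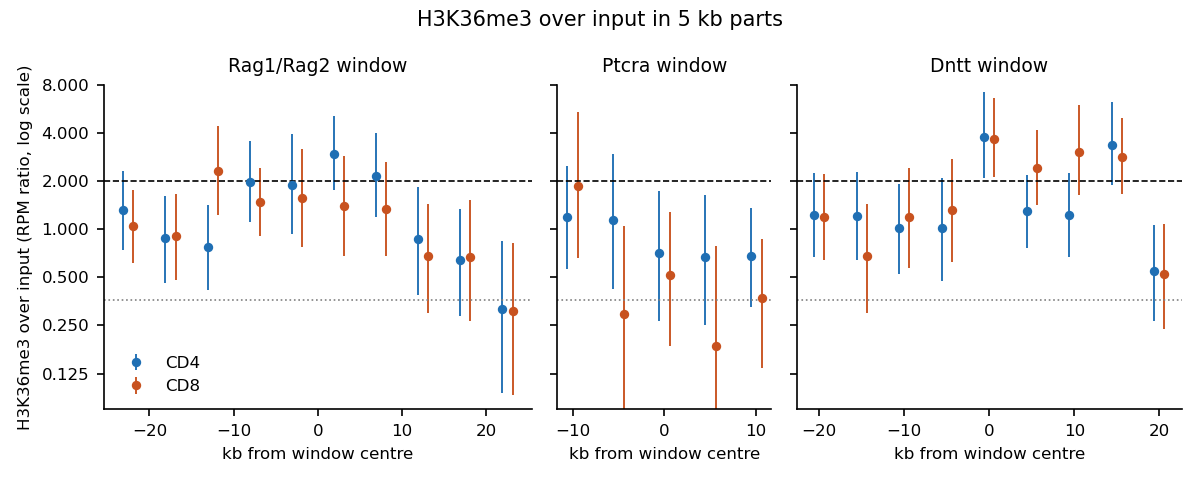
H3K36me3 fold over input (RPM ratio, log scale) in each 5 kb part of the 3 windows, in CD4 cells (blue) and CD8 cells (red), against distance from the window's centre in kb. Points are single libraries, bars are exact 95% intervals, the dashed line is the 2-fold threshold and the dotted line the background level of the CD4 library. Dntt has 4 parts above the threshold in CD8 cells and 2 in CD4 cells, the Rag1/Rag2 window 1 and 2, and the Ptcra window 0 and 0.

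The Ptcra window had strong H3K4me3 at both edges and next to none between. The run at chr17:46888001-46889500 held 467 CD4 reads and 856 CD8 reads, and the one at chr17:46909001-46910000, which goes on to 46910500 beyond the window, held 339 and 681 inside it. They were 73.8 and 235 times the input, and 107 and 187 times. Their top bins were 21.0 kb apart. In RefSeq, Ptcra (8.05 kb, minus strand) lies between Cnpy3 and 2310039H08Rik, whose starts are 20.42 kb apart and whose promoters have CpG ratios of 0.947 and 0.864. This spacing places the 2 runs at those neighbours, not at Ptcra, whose start lies 11.5 kb from that of Cnpy3.

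**Figure D5:**
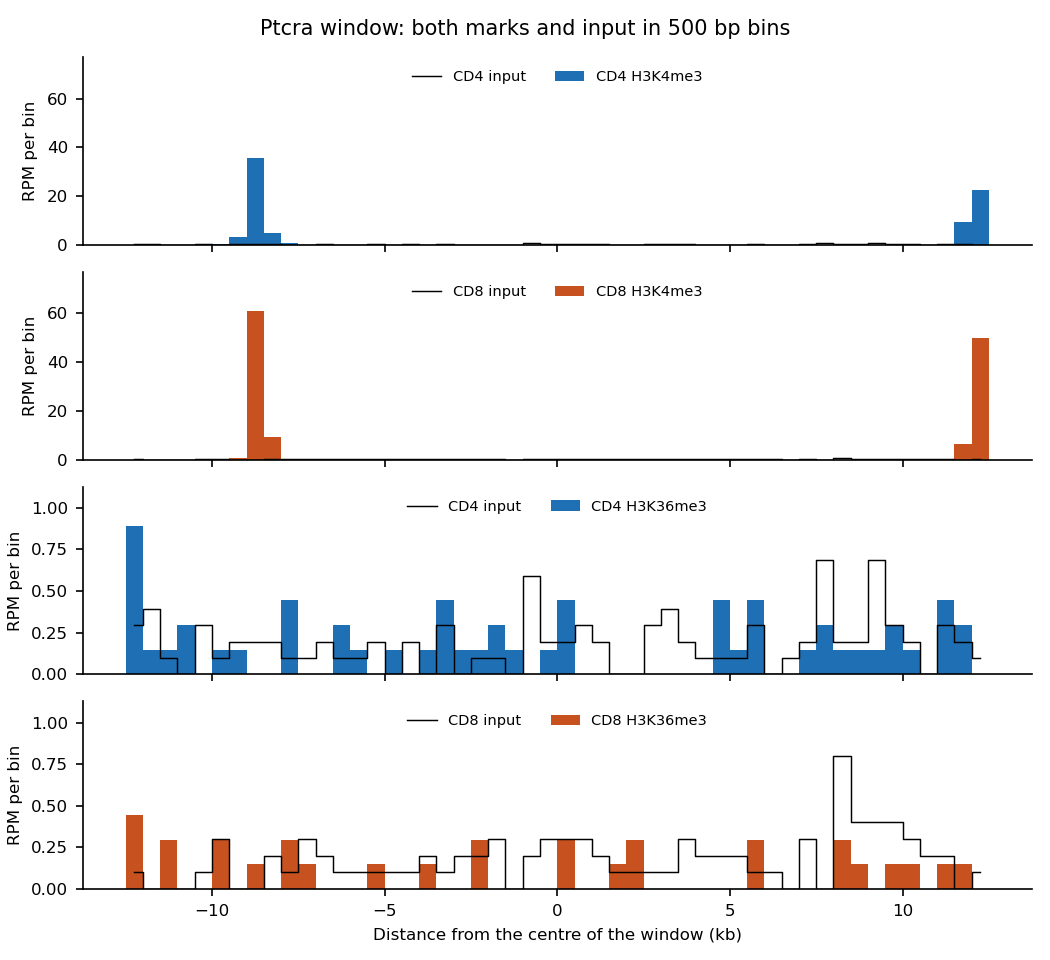
Reads scaled to library size (RPM) per 500 bp bin across the Ptcra window, with the same layout as the plot of the Dntt window. H3K4me3 stands at both edges, with 384 CD4 and 738 CD8 reads in the fullest bin of the left run, and the 19.5 kb between the runs has no bin above 6 CD4 or 4 CD8 reads. H3K36me3 is low throughout, with 1 enriched bin of 6 CD4 reads at the left edge.

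In the 19.5 kb between the runs, where Ptcra lies, H3K4me3 counted 29 reads (19.4 to 41.6) in CD4 cells and 9 (4.12 to 17.1) in CD8 cells. The background expected there was 15.7 and 1.46 reads, so the sums were slightly above it in both libraries, but none of the 8 tiles without an enriched bin passed in both. The tile at chr17:46900001-46902500 passed in CD8 cells alone, with 4 CD8 reads where 0.166 were expected. It held 3 CD4 reads where 2.33 were expected. The spacing from Cnpy3 puts the Ptcra start near this tile. H3K36me3 over the same stretch was 39 CD4 reads, 0.797 (0.526 to 1.19) times the input, and 20 CD8 reads, 0.374 (0.217 to 0.617) times. The CD8 value was close to the background level of 35.9% of input, and the CD4 value was above it, with 17.5 reads expected. No part of the window was enriched in either cell type. Neither mark was thus enriched at Ptcra in mature cells, unlike Dntt.

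No run of the Ptcra window was called different between the CD4 and CD8 libraries. The 2 H3K4me3 runs had CD4 to CD8 ratios of 0.792 (0.706 to 0.888) and 0.723 (0.633 to 0.825), which is 1.26 and 1.38 times more in CD8 cells and below 2-fold. The size depended on the processing, with 0.990 and 0.944 with 1 read per position and 0.616 and 0.562 with scaling to total reads. In the left run 1 bin, starting at 46888001, was called higher in CD4 cells, with 33 against 8 reads and a ratio of 5.99 (2.71 to 15.0), or 3.12 with 1 read per position. H3K36me3 over the window was 53 CD4 and 29 CD8 reads, with a ratio of 1.88 (1.17 to 3.06) that excludes 1 but was not called. It was 3.99 with background subtracted, and between the runs it was 2.00 (1.14 to 3.62), also not called.

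Counted over the 3 windows, 5 of the 16 H3K4me3 bins enriched in either cell type were called higher in CD4 cells and 0 higher in CD8 cells. With 1 read per position 1 bin was called higher in CD4 cells, and with scaling to total reads 2 were called higher in CD4 cells and 1 in CD8 cells. In the genome 27.7% of such bins were called higher in CD4 cells and 9.38% higher in CD8 cells, so the share higher in CD4 cells is near what any enriched bins gave in these libraries. Of the 5, 4 lay at Dntt and 1 in the left run of the Ptcra window. For H3K36me3, 1 of 7 parts enriched in either cell type was called higher in CD4 cells and 0 in CD8 cells, against 1.82% and 0.869% in the genome. A lower count can come from fewer cells with the mark or from less mark per cell, and these cannot be told apart in bulk libraries.

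The labels were checked on windows around lineage genes, placed from general knowledge of mm9. The Cd4 window held 2211 CD4 and 71 CD8 H3K4me3 reads, and the window of Zbtb7b, the helper-lineage factor, 5873 and 66. The Cd8a and Cd8b1 window held 629 and 8707 reads. The window of Runx3, the cytotoxic-lineage factor, held 1131 and 5104. These H3K4me3 reads matched the labels of the 2 H3K4me3 libraries. Even so, Cd8a and Cd8b1 had 4 enriched bins in CD4 cells, Runx3 had 9, and Cd4 had 2 in CD8 cells. The window of Cd3g, Cd3d and Cd3e, genes of all T cells, held 8341 and 5074 reads. Its ratio of 2.39 (2.31 to 2.47) was called higher in CD4 cells, as was that of the Dntt run. The Actb and Gapdh windows, with ratios of 1.22 and 0.748, were not called. The Pax5 window of B cells had 0 enriched bins in both. Whether less mature thymocytes in the sorted cells add to the marks at Dntt and Rag1/Rag2 was not tested.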

How the data were processed

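The deposited values are start and end positions of aligned reads of 33 bp, 1 read per line with no strand or score, which the authors had placed on mm9 (per the submitters' processing notes). Which aligner and filters they used, and whether repeated reads were removed, is not given in the sources used here. Between 98.3% and 99.8% of each library lay on chromosomes 1 to 19, X and Y and was kept. Every read counted once, at its midpoint, in bins of 500 bp and parts of 5 kb, and neighbouring enriched bins were joined into runs over gaps of 1 bin. Background is the number of reads per input read in 5 kb parts at least 10 kb from any enrichment. CD4 to CD8 ratios have Clopper-Pearson intervals conditional on the sum of reads. No mm9 annotation was used, so gene starts were not placed by coordinates and the list of pathway genes was not applied. All 4 members and every run and enriched part are described. The members, lists and rules were chosen with earlier results of these data known. Not every marker window of the design is reported here. The calls were tested on simulated data. Alternatives covered repeated reads, input, thresholds, bin sizes, scaling and background. Counts and intervals were computed in Python 3.11.15 with pandas 2.3.3, SciPy 1.17.1 and NumPy 2.4.6, and plots drawn with matplotlib 3.10.9.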

Additional observations from a re-analysis of the deposited data

How the results depend on the processing

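Of 168 values recomputed under alternatives, 136 were labelled kept, 32 moved and 0 reversed. A value labelled kept could still change in size. The H3K4me3 ratio of the bin starting at 46888001 went from 5.99 to 3.12 with 1 read per position and was labelled kept. In the same setting the H3K4me3 ratio of the Ptcra window crossed 1, from 0.784 to 1.02, and was labelled moved. The count of 0 reversed thus does not mean that every ratio kept its direction. With 1 read per position, H3K36me3 in CD4 cells covered 20 kb of the Rag1/Rag2 window against 10 kb, the H3K4me3 CD4 to CD8 ratios became 0.990 and 0.944 for the Ptcra runs, 1.59 for the Dntt run, and 2.26, 1.02 and 1.75 for the Rag1/Rag2, Ptcra and Dntt windows, and 1 bin was called higher in CD4 cells against 5. With scaling to total reads the ratios were 1.03 for the strong Rag1/Rag2 run, 0.616 and 0.562 for the Ptcra runs, 1.69 for the Dntt run, and 1.44, 0.609 and 1.81 for the windows, with 2 bins called higher in CD4 cells and 1 in CD8 cells. With a centre at matched read depth, an alternative chosen after seeing the data, they were 0.895 and 0.841 for the Ptcra runs and 1.79 for the Dntt run, with 3 bins called higher in CD4 cells. At 8-fold over input, H3K4me3 covered 1000 bp of the Rag1/Rag2 window in CD4 cells against 2000 and 1000 bp of the Dntt window in CD8 cells against 2500, and with bins of 1000 bp it covered 2000 bp of the Rag1/Rag2 window in CD8 cells against 1000. With pooled inputs H3K36me3 covered 0 kb of the Rag1/Rag2 window in CD8 cells against 5. At 3-fold over input it covered 0 kb there in CD4 and in CD8 cells, and 10 kb of the Dntt window in CD8 cells against 20. A 3-fold difference left 0 parts called higher in CD4 cells, and subtracting background moved the H3K36me3 ratio of the Ptcra window to 3.99. For all of these the cause was not tested. No paired analysis was possible because each group has 1 library, and for the same reason no replicate could be left out. Depth limits H3K36me3, which had at most 14 reads in any 500 bp bin of the windows.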
